A study of Mus musculus with 6 samples.

Results

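Klf4 encodes Kruppel-like factor 4, a zinc finger transcription factor that is known as a reprogramming factor and served in the study as a marker of cancer stem cells. The data described here are the N6-methyladenosine (m6A) fractions at the positions of the Klf4 gene body on mouse chromosome 4, taken as every listed position between the ends of the gene. The rule used the position alone and no m6A value. It found 70 of the 567667 listed rows, and every one of the 70 had a value in all 6 samples. All 70 fell in exons of the mature Klf4 transcript, so that each could be given a place in the 5' UTR, the coding sequence or the 3' UTR.

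The samples were HCICs, the HCC-initiating cells cultured from livers of mice treated with the carcinogen DEN. MTH-WT cells (n = 3) were single-cell colonies with wildtype Mthfd1l that had received Cas9 and the empty LentiCRISPRv2 vector, and MTH-D cells (n = 3) were single-cell colonies in which Mthfd1l was knocked out with Cas9 and guide RNAs. Cas9 and the lentiviral vector were thus shared by both groups. The study made the knockout in HCIC-1, a line from a control (CTL) mouse, and in HCIC-2 and HCIC-3, lines from DKI mice, which carry knock-in mutations of both Mdm2 and Mdmx, regulators of p53, and keep wild-type p53. It describes the knockout of HCIC-2 as a deletion of a single nucleotide and names HCIC-1 and HCIC-3 as the lines used for m6A sequencing, whereas the table holds 3 samples a group. The labels number the samples 1 to 3 in each group and do not say which number is which line. A colony is 1 clone, so that differences between clones and the effect of the knockout cannot be told apart within a line. The table holds no expression values, and the loss of Mthfd1l itself was not analysed here.

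m6A is the most common internal modification of messenger RNA. It is written by a METTL3-METTL14 methyltransferase complex that takes its methyl group from S-adenosylmethionine, and reader proteins that bind it can shorten the life of an mRNA or change its translation. It is placed at adenosines in the motif called DRACH, in which D stands for A, G or T, R for A or G, and H for A, C or T. It is usually dense in long internal exons and around the stop codon and sparse close to exon junctions, where exon junction complexes sit on the RNA. Mthfd1l encodes a mitochondrial enzyme of one-carbon metabolism that releases formate, a source of the methyl groups that reach S-adenosylmethionine.

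Each library was read by nanopore direct RNA sequencing, in which the RNA itself passes the pore and modified adenosines are called from the current. The authors deposited 1 number per position and sample, the fraction of m6A from 0 to 1, here given in percent. Read counts and coverage do not accompany it. Depth is therefore unknown, and single values carry no interval. Fractions of exactly 0 differed between samples: of the 70 Klf4 positions, 8, 19 and 3 were at 0 in MTH-WT 1, 2 and 3, and 13, 16 and 2 in MTH-D 1, 2 and 3. Among these 70, the samples numbered 2 held the most zeros in both groups and the samples numbered 3 the fewest. Over the whole table, zeros made up 30.3%, 40.2% and 35.3% of MTH-WT 1, 2 and 3 and 29.6%, 35.4% and 34.0% of MTH-D 1, 2 and 3. There the samples numbered 1 held the fewest in both groups. The part of the zeros in the values given here was not tested.

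The positions were placed on the Klf4 transcript ENSMUST00000107619.2, which runs from chr4:55527143-55532466 on the minus strand and has 5 exons and a length of 3029 nt, of which 595 nt are 5' UTR, 1452 nt coding sequence with its stop codon and 982 nt 3' UTR. The build named in the submitters' processing notes is GRCm39 and the transcript was taken from GENCODE M21 on GRCm38, so the match was tested on the sequence. With 1 added to each listed position, 68 of the 70 lay on the adenosine of a DRACH motif of the Klf4 transcript, and at any other shift of up to 1000 bases to either side at most 6 did. All 68 of the 68 DRACH adenosines of the mature transcript were listed (100%), 0 of the 70 positions lay on a DRACH of the opposite strand, and 2 lay on adenosines without the motif. No position was converted between builds. Klf4 held 22.4 DRACH motifs per kb of transcript, against a median of 20.4 over 58616 protein-coding transcripts. In what follows, positions are named by their place in the transcript, counted from 1 at its 5' end, and coordinates are those of the table plus 1.

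The 10 positions that averaged above 50% m6A over the 6 samples carried most of the Klf4 signal, and their surroundings in the RNA are shown 5' to 3' with T for U. Capitals mark the 5-letter motif, whose middle letter is the adenosine measured.
421 (5' UTR, chr4:55532046-55532046): atacaaagGAACTtttttaaa
906 (coding sequence, chr4:55530799-55530799): ctggacctAGACTttatcctt
1152 (coding sequence, chr4:55530553-55530553): aacctggcGGACAtcaatgac
1212 (coding sequence, chr4:55530493-55530493): ccggagttGGACCcagtatac
1550 (coding sequence, chr4:55530155-55530155): ccccaccaGGACTacccctac
1576 (coding sequence, chr4:55530129-55530129): gtcccgagGAACTgctgaaca
1593 (coding sequence, chr4:55530112-55530112): aacagcagGGACTgtcaccct
1933 (coding sequence, chr4:55528239-55528239): gctccgatGAACTgaccaggc
2299 (3' UTR, chr4:55527873-55527873): aaatcacaGAACAgatggggt
2368 (3' UTR, chr4:55527804-55527804): acatgcccGGACTtacaaaat
Some copies of the same motifs far from an exon junction were low too, such as GGACC at 254 (3.36%, 347 nt away) and GAACA at 2847 (0.205%, 976 nt away). Within 100 nt of a junction lay GAACT at 1933, listed above (81.4%, 62 nt away), and GAACA at 1784 (1.19%, 78 nt away). The other copies of these motifs within 100 nt of an exon junction are shown for contrast, and all averaged under 5% m6A.
565 (5' UTR, chr4:55531902-55531902): tcttcttcGGACTccggagga
575 (5' UTR, chr4:55531892-55531892): actccggaGGACCttctgggc
736 (coding sequence, chr4:55530969-55530969): ggcgtgagGAACTctctcaca
1862 (coding sequence, chr4:55529727-55529727): acacctgcGAACTcacacagg

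m6A was high in Klf4 relative to the table as a whole. Klf4 averaged 15.7% over its 70 positions with a median of 4.09%, whereas the other 567597 positions averaged 6.90% with a median of 0.958%. Of the Klf4 positions, 25 (35.7%) averaged at least 10% m6A and 10 (14.3%) at least 50%, against 14.3% and 4.37% of all others. Positions under 2% made up 41.4% of Klf4 (29 of 70) and 66.4% of the rest. The other 32220 positions of chromosome 4 were close to the whole table, with a mean of 7.15%, a median of 0.98%, 14.8% at 10% or more and 4.63% at 50% or more. These levels are a description, since positions of 1 transcript share its reads and are not replicates.

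The 10 high positions formed a group apart in every sample. The same 10 positions were the 10 highest of Klf4 in each of the 6 samples, and the highest of all was 2368 in 4 samples and 1212 in MTH-WT 2 and MTH-D 2. The lowest value that any sample gave at any of the 10 was 47.25%, at 1152 in MTH-D 3. The highest value that any sample gave at any other Klf4 position was 38.89%, at 900 in MTH-WT 1.

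**Figure D1:**
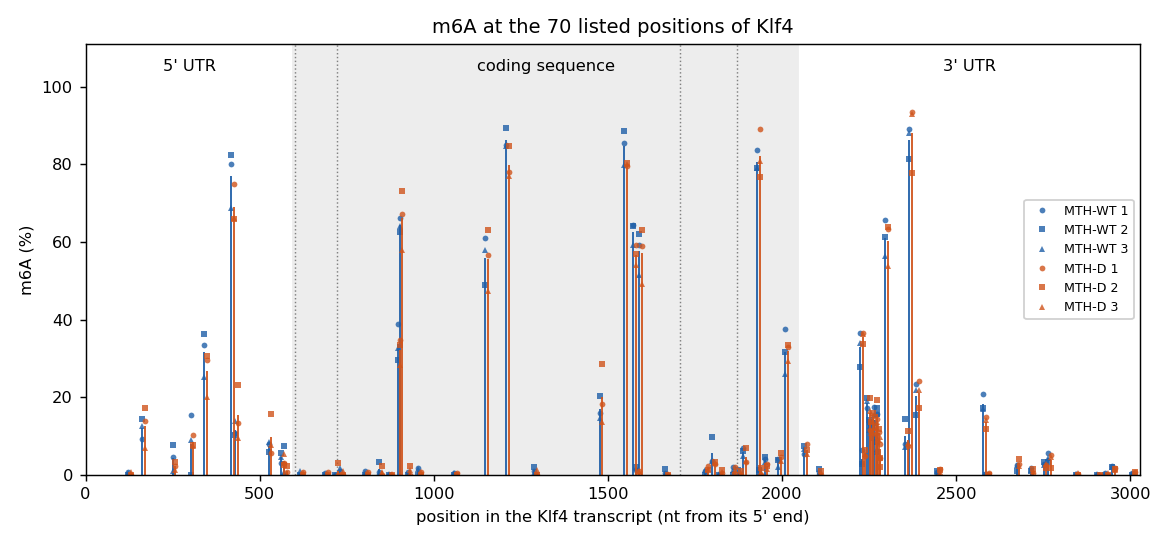
m6A in percent at the 70 listed Klf4 positions, along the transcript in nt from its 5' end. Points are the 6 samples, vertical lines the mean of MTH-WT (blue, drawn slightly to the left) and MTH-D (orange, slightly to the right), dotted lines the exon junctions and the grey field the coding sequence. The 10 positions averaging above 50% stand in exons 1, 3 and 5, and most others are near 0.

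The 5' UTR, the coding sequence and the 3' UTR each held modified positions, and the coding sequence held most of the highest. In the 5' UTR, 4 of 10 positions averaged at least 10% and 1 at least 50%, with a mean of 15.4% and a median of 8.40%. In the coding sequence the figures were 10 and 7 of 32, with a mean of 18.6% but a median of only 1.19%. The 3' UTR had 11 and 2 of 28, with a mean of 12.5% and a median of 6.07%. The coding sequence thus combined the highest mean of the 3 regions with the lowest median.

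By exon, the high positions lay in exons 1, 3 and 5. Exon 3, which at 985 nt is the long internal exon, held 8 of its 18 positions at 10% or more and 6 at 50% or more. Exon 5, the last, of 1158 nt, held 13 of 35 and 3, and exon 1, of 600 nt, held 4 of 10 and 1. The short exons 2 (121 nt) and 4 (165 nt) held none at 10%: the 3 positions of exon 2 averaged 0.24% to 0.533% and the 4 of exon 4 averaged 0.397% to 4.30%.

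Distance from an exon junction followed the same division. Of the 68 DRACH positions, 18 lay within 100 nt of a junction and 1 of them (5.56%) averaged at least 10%, with a median of 1.07%. The other 50 lay further away, of which 23 (46%) averaged at least 10%, with a median of 7.39%. The other exonic DRACH positions of chromosome 4 below 59 Mb, where the positions of the table meet the annotation, gave 3.08% of 2891 within 100 nt and 19.0% of 5500 further away. Their distance was the longest over all annotated transcripts, and transcripts of a single exon counted as far, whereas Klf4 distances come from 1 transcript. Some positions counted as far may thus lie near a junction in another transcript. In both sets the share was lower near junctions, and at longer distance it was higher in Klf4 than around it. The exception was 1933 in exon 5, 62 nt from the last junction, which averaged 81.4% and was at 76.77% or more in every sample. The DRACH at 1937, 4 nt further on, averaged 1.097%.

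**Figure D2:**
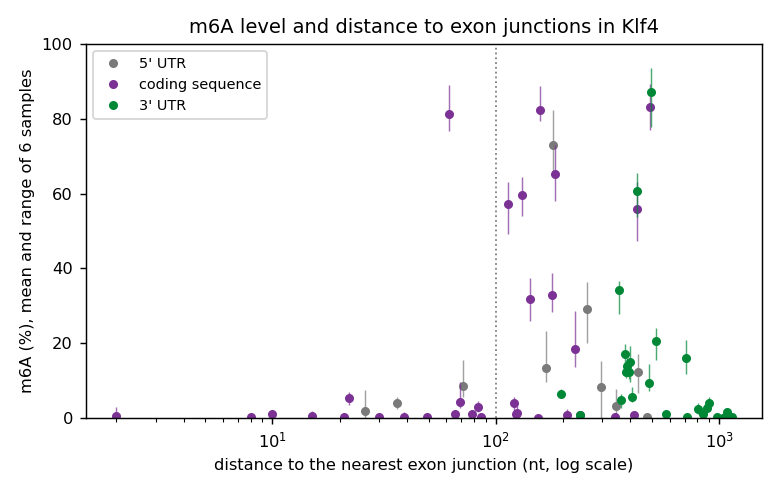
Mean m6A in percent over the 6 samples at each Klf4 position on a DRACH motif against its distance from the nearest exon junction in nt (log scale), coloured by region, with vertical lines from the lowest to the highest sample. Left of the dotted line at 100 nt, 1 position (81.4%) lies above 10%, and to the right 23 of the 50 DRACH positions do.

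The letters of the motif went with the level as well. Motifs ending in T numbered 17, of which 9 averaged at least 10% and 7 at least 50%, with a median of 12.4%. Motifs ending in A or C numbered 51, of which 15 averaged at least 10% and 3 at least 50%, with a median of 2.52%. Around Klf4, the median was 1.47% for 3005 motifs ending in T and 0.722% for 5386 ending in A or C. Of these, 23.2% and 8.10% averaged at least 10%, and 7.89% and 1.76% at least 50%. By their first letters, GGAC motifs reached 10% at 10 of 14 positions, GAAC at 5 of 12, AGAC at 3 of 9, TGAC at 1 of 14 and AAAC or TAAC at 5 of 19, where all 5 were AAACA motifs of an A-rich stretch described further on. The shares around Klf4 were 31.6%, 14.9%, 15.6%, 8.40% and 3.97% in the same order, so that TGAC in Klf4 was near its surroundings.

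The same 5 letters gave very different levels within Klf4. GGACT occurred 5 times, at 87.2% in the 3' UTR (2368), 82.3% and 57.3% in exon 3 (1550 and 1593), 12.4% in the 5' UTR (167) and 4.04% at 565, which lies 36 nt from the first junction. GAACT also occurred 5 times, at 81.4% (1933), 73.0% (421) and 59.6% (1576), but at 1.04% and 0.628% at 1862 and 736, which lie 10 and 15 nt from a junction. Low copies were not confined to junctions. GAACA averaged 60.7% at 2299 but 1.76% at 2953 and 0.205% at 2847, all in the 3' UTR and over 100 nt from a junction. At over 100 nt from a junction, with the unlike distances given above, the median was 69.8% over 4 GGACT motifs of Klf4. It was 17.5% over 314 other GGACT motifs on this stretch of chromosome 4. For GGACC the median was 30.5% over 6 motifs of Klf4 against 4.44% over 232 others, and for GAACT 66.3% over 2 against 5.20% over 347. Not every motif was higher in Klf4. The median was lower for AAACT (0.109% over 2 against 1.07% over 433) and AGACC (0.534% over 2 against 0.82% over 239). It was also lower for AAACC (0.382% at 1 against 0.52% over 245). The other motifs found at this distance were higher in Klf4, for TGACC only narrowly (0.763% over 6 against 0.726% over 232).

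A cluster of moderate calls lay in an A-rich stretch of the 3' UTR, where the listed adenosines have at least 11 A among the 15 nt around them, 202 to 231 nt after the stop codon, at chr4:55527894-55527923. It is shown because 8 of the 70 listed positions fall in its 30 nt, of which 25 are A, and it was picked out after its values were seen. Capitals mark the 8 listed adenosines.
A-rich stretch: AcaaAcaaAcaaaaaaAcaaAcaaaaaAAA
The 8 positions averaged from 5.61% to 17.2% with a median of 12.4%, and 6 of them were at 10% or more. They include both of the listed Klf4 positions that are not on a DRACH motif (2276 and 2277). The 6 others have the motif AAACA, which had a median of 0.788% over 713 positions around Klf4, where 2.52% of them reached 10%. The other AAACA motifs of Klf4, at 1954 and 2234, averaged 3.05% and 4.82%. How well a modification caller reads adenosines in such a stretch was not tested.

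The comparison of MTH-D with MTH-WT asks whether loss of Mthfd1l went with a change in Klf4 m6A. By the mean over all positions it did not separate the groups. Over all 70 positions, Klf4 averaged 16.7%, 16.2% and 15.2% in MTH-WT 1, 2 and 3 and 15.8%, 16.2% and 14.4% in MTH-D 1, 2 and 3. The groups overlapped, with means of 16.0% ± 0.781 (SD, n = 3) and 15.5% ± 0.925 (SD, n = 3). The difference, MTH-D minus MTH-WT, was -0.562 points, less than either SD, with p = 0.50 in a two-sided exact permutation test. The smallest p that this test can give for 3 samples a group is 0.10. Within the samples of 1 number it was -0.929, -0.00543 and -0.752 points for numbers 1, 2 and 3.

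Restricting the mean to the 25 positions at 10% or more gave a like picture. The values were 42.3%, 40.3% and 38.7% in MTH-WT 1 to 3 and 40.5%, 41.1% and 36.6% in MTH-D 1 to 3, again overlapping. The means were 40.4% ± 1.80 (SD, n = 3) and 39.4% ± 2.44 (SD, n = 3), a difference of -1.02 points (two-sided exact permutation test, p = 0.70). MTH-D was lower in the samples numbered 1 (-1.76 points) and 3 (-2.06) and higher in those numbered 2 (0.754). Without MTH-D 3 the difference was 0.373 points, so its direction rested on that sample.

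Klf4 was also set against the rest of each library. This removes a shift by the same number of points at all positions, but not a shift in proportion to the level. The Klf4 mean exceeded that of all other positions by 9.87, 8.74 and 8.60 points in MTH-WT 1 to 3 and by 9.28, 8.51 and 8.08 points in MTH-D 1 to 3. Among positions at 10% or more alone, in Klf4 and in the rest, the excess was only 0.931 points in MTH-WT and 0.669 in MTH-D. Over all positions it was 9.07 ± 0.693 points in MTH-WT and 8.62 ± 0.605 in MTH-D (SD, n = 3 each). It was lower in MTH-D in 3 of 3 same-numbered pairs, with a mean difference of -0.450 points, and the groups overlapped. The two-sided exact permutation test gave p = 0.50, and the exact sign-flip test over the pairs p = 0.25, the smallest that 3 pairs can give. By other summaries of the positions the groups did not overlap. The difference was -0.95 points between medians and -0.0852 in mean log2 odds. Each had p = 0.10 in the exact permutation test, the smallest it can give for 3 samples a group. Against chromosome 4 alone, or among positions at 10% or more, its p was 0.50 and 0.70.

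**Figure D3:**
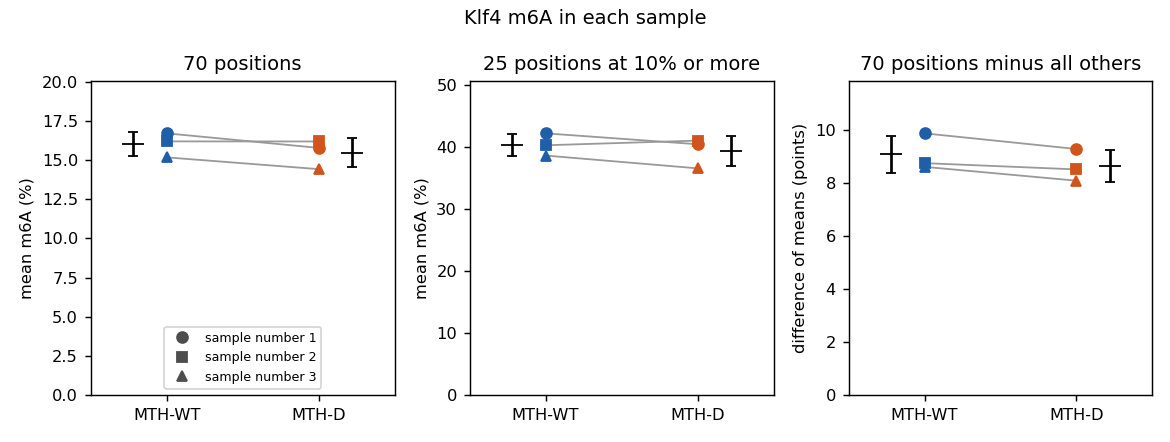
Klf4 m6A in each of the 6 samples: the mean in percent over all 70 positions (left) and over the 25 averaging at least 10% (middle), and the mean of all 70 minus that of all other listed positions, in percentage points (right). Lines join samples with the same number, and the bars at the sides are group means with their SD (n = 3). The groups overlap in all 3 panels.

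None of the regions of the transcript separated the groups. The 5' UTR averaged 16.0% ± 1.33 in MTH-WT and 14.9% ± 2.19 in MTH-D, a difference of -1.098 points. The coding sequence averaged 18.9% ± 0.850 and 18.4% ± 1.32, a difference of -0.564 points. The 3' UTR averaged 12.7% ± 0.611 and 12.4% ± 0.247, a difference of -0.369 points. Each SD is over 3 samples, and each difference had p = 0.60 by a two-sided exact permutation test, also after adjustment over the 3 regions. In the 5' UTR and the coding sequence MTH-D was not lower without MTH-D 3, where the differences were 0.0942 and 0.157 points.

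At single positions, limma, fitted to log2 odds, called 0 of the 70 Klf4 positions at an adjusted p under 0.05, with Benjamini-Hochberg adjustment over the table, and 0 of the 567667 positions listed (0%). At an unadjusted p under 0.05 it gave 1 Klf4 position (1.43%) against 3.22% of the table, which is no more than the background. That position was 1823, in the coding sequence of exon 4 and chosen here after its values were seen, with 0%, 0% and 0.15% in MTH-WT 1 to 3 and 0.44%, 1.12% and 0.67% in MTH-D 1 to 3. Its log2 odds were higher in MTH-D by 0.73 ± 0.27 (SE), with an adjusted p of 0.939 by limma, at a level close to 0.

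Counted by size, 14 of the 25 positions at 10% or more had a lower mean in MTH-D (56%), near the 57.9% of the table. The median difference was -0.477 points in Klf4 and -0.687 points over the 81446 positions of the table at this level. Differences of 5 points or more downward were found at 3 positions (12%, against 15.2% of the table), and upward at 0 positions (against 9.28%). Both shares were under the background, but they rest on only 25 positions of 1 transcript. The 2 groups did not overlap, with MTH-D lower, at 4 positions (16%, against 3.38%), and with MTH-D higher at 1 position (4%, against 2.07%). None of the counts in this paragraph was tested, and neighbouring positions can be read on the same RNA molecules.

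The 3 most lowered positions lay in the 5' UTR and in exon 3. At 421 in the 5' UTR, m6A was 80.14%, 82.35% and 68.65% in MTH-WT 1 to 3 and 75.0%, 65.85% and 66.18% in MTH-D 1 to 3. Its groups overlapped, and the difference of -8.04 points came mostly from the samples numbered 2, at -16.5 points. At 1212 in the coding sequence, the GGACC shown above, m6A was 84.91%, 89.29% and 84.72% in MTH-WT 1 to 3 and 78.07%, 84.62% and 76.9% in MTH-D 1 to 3. All MTH-D samples lay under all MTH-WT samples there, by 0.1 points at the closest, with means of 86.3% ± 2.59 and 79.9% ± 4.16 (SD, n = 3) and a difference of -6.44 points. The adjusted p by limma was 0.939.

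At 1576, a GAACT of exon 3, m6A was 64.35%, 64.0% and 59.21% in MTH-WT 1 to 3 and 59.12%, 56.94% and 54.14% in MTH-D 1 to 3. These groups also did not overlap, by a margin of 0.09 points, and the difference of -5.79 points was alike in the 3 pairs, at -5.23, -7.06 and -5.07 points. The adjusted p by limma was 0.939. The nearest positions at 10% or more on either side differed by -4.74 points (1550) and -0.477 points (1593), and their groups overlapped. Among the 25 positions at 10% or more, the others without overlap were 2581 in the 3' UTR (18.4% ± 2.23 against 13.7% ± 1.63, SD, n = 3), and 2 of the A-rich stretch, 2265 lower and 2257 higher in MTH-D.

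The 3 most raised positions differed most in the samples numbered 2. At 433 in the 5' UTR, m6A was 10.71%, 10.26% and 13.94% in MTH-WT 1 to 3 and 13.43%, 23.26% and 9.56% in MTH-D 1 to 3, a difference of 3.78 points in which MTH-D 2 stood apart. At 1480 in exon 3 the difference was 3.14 points, with MTH-D 2 at 28.57% and the other samples from 13.66% to 20.34%. At 2229 in the 3' UTR it was 2.76 points, with MTH-WT 2 the lowest at 27.88% and the other samples from 33.8% to 36.64%. The groups overlapped at all 3.

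The remaining high positions moved little or in both directions. The highest, 2368 in the 3' UTR, had 89.22%, 81.25% and 88.06% in MTH-WT 1 to 3 and 93.58%, 77.78% and 93.05% in MTH-D 1 to 3. Both samples numbered 2 were the lowest of their group there, and the group means were 86.2% ± 4.31 and 88.1% ± 8.97 (SD, n = 3). At 1933, the exception near a junction, the means were 80.6% ± 2.81 and 82.2% ± 6.22 (SD, n = 3). At 1152 the pairs disagreed in direction, and the means of 55.9% ± 6.26 and 55.7% ± 7.997 (SD, n = 3) were nearly equal. Of the other positions above 50%, 906 differed by 1.82 points and 2299 by -0.757 points, both within overlapping groups.

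Among the 15 highest positions, the 4 others were 900, 2013, 344 and 2390, with means over all samples of 32.9%, 31.8%, 29.2% and 20.6%. At 344, a GGACC of the 5' UTR, m6A was lower in MTH-D in 3 of 3 pairs, with group means of 31.6% ± 5.77 and 26.7% ± 5.77 (SD, n = 3) that overlapped. At 900 the difference was -1.66 points, at 2013 it was 0.163 points and at 2390 it was 0.887 points. All of these were smaller than the SD of MTH-WT at the same position.

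**Figure D4:**
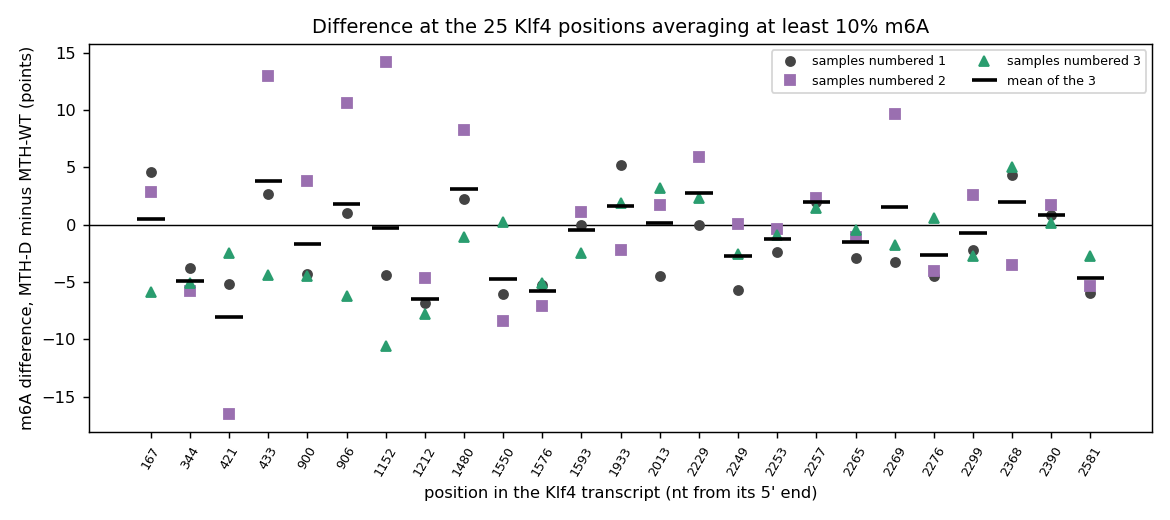
Difference in m6A, MTH-D minus MTH-WT in percentage points, at the 25 Klf4 positions averaging at least 10%, ordered along the transcript (not to scale). Points are the same-numbered samples and bars the mean of the 3 numbers. The samples numbered 2 give the widest of the 3 differences at 12 of the 25 positions, such as -16.5 points at 421, and at 1212 and 1576 all 3 points lie under 0.

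The spread between samples was as wide within the groups as between them. Over the 25 positions, 2 samples of the same group differed by a mean of 4.25 to 6.83 points in absolute terms (6 pairs) and 2 samples of different groups by 3.26 to 6.36 points (9 pairs). Pearson's r of the profiles across these positions ran from 0.960 to 0.991 within groups and from 0.968 to 0.991 between them, given as a description, as positions are not independent and share their motifs in all samples. By number, MTH-D was under MTH-WT at 16, 11 and 17 of the 25 positions in the samples numbered 1, 2 and 3, with median differences of -2.86, 1.09 and -2.47 points.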

How the data were processed

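m6A was measured in 6 direct RNA libraries (ONT SQK-RNA004, PromethION, 1000 ng of total RNA per sample, 1 flow cell each, all labelled as batch 1). Values are the m6A fractions that the authors deposited, between 0 and 1 and without coverage. The submitters' processing notes name minimap2 2.26, SAMtools and GRCm39. The basecaller, the modification model and the coverage filter are not given in the sources used here. A coverage filter and the model's threshold could both move a fraction, and neither can be checked without read counts.

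Fractions were converted to percent with Python 3.11.15, numpy 2.4.6 and pandas 2.3.3, and the mean over the Klf4 positions was compared between groups, taken from the sample labels, by two-sided exact permutation tests. Every row of the table was tested on log2 odds by limma 3.58.1 (R 4.3.3), with 1 point added to the modified and unmodified share, and Benjamini-Hochberg adjustment over all rows. This test was checked on simulated data in which the changes were larger than any in Klf4, where the largest was 0.788 in log2 odds. The check therefore does not show whether changes of the size seen here could be called. Nothing in the labels says that same-numbered samples share a mouse, but the study calls the cells paired, and their deviations from the group means correlated at 0.164, 0.223 and 0.133 over the 81446 positions averaging at least 10%, so numbers were treated as pairs in an alternative.

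Sequences and regions came from transcript ENSMUST00000107619.2 of GENCODE M21. The members and lists were chosen with earlier results of these data known. By the naming rule, the 15 highest positions and the 3 most lowered and 3 most raised among those averaging at least 10% were described. Values of other genes were not analysed here, as no annotation of the table's build was used. P-values set a difference between groups against the spread between these samples. The labels do not say whether that spread is one between colonies, lines or mice. All 6 sample columns were used, and 0 columns were left out.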

Additional observations from a re-analysis of the deposited data

How the results depend on the processing

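Of 80 alternatives run over the Klf4 results, 75 left the direction or the count as it was, 4 reversed a direction and 1 moved a count. Some of the 75 could not have come out otherwise. The replicate block leaves a difference of means as it is, and a count of 0 positions raised by 5 points stays 0 at 10 points. In the 11 limma alternatives no Klf4 position passed the threshold, but neither did any other position of the table, so these counts tell little about Klf4. The exact tests cannot give a p under 0.05 with so few samples. Relative to all other positions, the exact permutation p was 0.10 by the median over positions (-0.95 points) and by the mean log2 odds (-0.0852). That is the smallest p possible with 3 samples a group. The reversed differences were those of the 25 positions at 10% or more without MTH-D 3 (0.373 points) and when positions were summarised by their median (0.803 points, exact permutation p = 0.90), and without MTH-D 3 those of the 5' UTR (0.0942 points) and of the coding sequence (0.157 points). The count of positions lower by 5 points or more went from 3 to 0 at a threshold of 10 points, by its own construction. Leaving out 1 sample at a time gave -0.988 to -0.0411 points over all 70 positions, -1.90 to 0.373 over the 25, -0.777 to -0.0518 relative to all other positions, -2.06 to 0.0942 in the 5' UTR, -1.14 to 0.157 in the coding sequence, -0.634 to -0.0349 in the 3' UTR, and 0 to 0 calls by limma. With the sample number as a replicate block, the difference over all 70 positions is -0.562 points by construction, as each group has 1 sample of each number. Only its p could change, and the exact sign-flip p was 0.25, the smallest that 3 pairs can give. limma with the block called 0 Klf4 positions and 0 in the whole table, so that the block changed no call. With the samples numbered 1 and 3 alone, the differences were -0.840 points over 70 positions and -1.91 over 25, each with p = 0.667 by an exact permutation test, in which 2 samples against 2 cannot give less than 0.333. Leaving out the A-rich stretch (-0.470 points over the rest) and keeping only the 68 DRACH positions (-0.491 points) were chosen after seeing the data. Unadjusted limma p-values under 0.05 were found at 0 to 7 Klf4 positions over the alternatives, and the smallest adjusted p ran from 0.322 to 1. The most were 7 of 70 without MTH-WT 3, where 4.62% of the table was under 0.05. There were 5 of 70 with an offset of 5 points (3.28% of the table), without the log transform (3.03%) and with the samples numbered 1 and 3 (7.40%). The replicate block gave 0 of 70 (3.05%). The share in Klf4 was thus above that of the table in some alternatives and under it in others. Depth is unknown, so the precision of a single value cannot be given. The gene-level comparison planned with other genes was not run, because no annotation of the table's build was used.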
